A study of Homo sapiens with 6 samples.

Results

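The transcripts described here are the long intergenic noncoding RNAs of PC9OR cells, taken as every row of the count table whose symbol is LINC followed by digits alone and whose raw counts, summed over the 6 libraries, reach 120. The rule found 148 such genes among 2138 rows with such a symbol and 60664 rows in all. They were chosen by their total count, so their abundance is a description and is not tested. The total does not use the contrast between the groups. RNA sequencing was done on 3 si-GLMP libraries and 3 NC libraries. PC9OR is labelled as a lung cancer cell line in a study of resistance to EGFR inhibitors, and PC9 is a human lung adenocarcinoma line driven by mutant EGFR. The si-GLMP libraries carry a GLMP knockdown and the NC libraries are the controls, both in the same line. The labels do not name the siRNA sequence, the transfection time or any drug in the medium, nor whether the repeats were separate cultures. A p-value here is therefore set against a library-to-library spread that may be no more than technical. In bulk RNA, fewer cells that express a transcript and less of it per cell cannot be told apart.

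Long noncoding RNAs are transcribed, capped and often spliced and polyadenylated like messenger RNAs, but carry no long open reading frame. Those that lie between known genes and have no better name receive a LINC symbol, so the group is held together by a naming rule and not by a function. Most such transcripts are scarce and restricted to a few cell types. Some act on genes near their own locus, some act elsewhere in the nucleus or cytoplasm, some serve as precursors of small RNAs, and for many no function is known.

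The knockdown was present in each library. GLMP, which encodes a glycosylated lysosomal membrane protein, had 82, 61 and 65 counts in the si-GLMP libraries, against 309, 344 and 347 in the NC libraries, a log2 fold change of -2.25 ± 0.14 (SE; adjusted p = 1.16e-18 by edgeR's quasi-likelihood test). Library totals ran from 20313899 to 21041277 counts in si-GLMP and from 19896875 to 22372878 in NC. Mitochondrially encoded genes took 5.19% to 5.51% of the counts in si-GLMP and 6.51% to 8.76% in NC, so the groups did not overlap. NC replicate 2, at 8.76%, stood apart from the other NC libraries, at 6.57% and 6.51%. The epithelial markers EPCAM, KRT8, KRT18, KRT19 and CDH1 summed to between 6467 and 7135 CPM (counts relative to the TMM-scaled library size) in si-GLMP and between 6758 and 6924 CPM in NC. The 5 leukocyte markers summed to 0.291 to 0.635 CPM in si-GLMP and 0.0489 to 0.552 CPM in NC, with LYZ and TYROBP at 0 throughout. The 3 endothelial markers summed to 6.78 to 7.59 CPM in si-GLMP and 4.82 to 7.68 CPM in NC, and the 5 fibroblast markers to 10.5 to 12.4 CPM in si-GLMP and 5.99 to 7.48 CPM in NC. EPCAM and CDH1 were each higher at a log2 fold change of 0.30, with edgeR adjusted p-values of 0.000294 and 0.000358. KRT18, KRT19 and KRT8 were not called, at -0.128, -0.0987 and -0.0453 (edgeR adjusted p = 0.150, 0.305 and 0.672). Most of the fibroblast sum was COL1A1, which was higher at 0.91 (edgeR adjusted p = 1.59e-06), while DCN and LUM had 1 count each over all libraries. The part of these markers in the results was not tested.

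Promoters are shown for all 9 called members that had one in the RefSeq table and whose call held in every alternative fit, from 250 bases before to 50 bases after the start site (RefSeq, GRCh38.p14), written 5′ to 3′ along the transcript. Of the 148 members, 95 had a promoter in the RefSeq table, and of these 18 were among the members that changed. Capitals mark matches, on either strand, to the motifs searched, which were the TATA box TATAAA, the AP-1 word TGACTCA with its reverse complement, the cyclic AMP response element TGACGTCA, the TEAD word GGAATG, the NF-kB word GGANTTTCC and the hypoxia response element core ACGTG. The first 4 belong to transcripts that were higher in si-GLMP, and the other 5 to transcripts that were lower.
LINC00942 (chr12:1500241-1500540, plus strand): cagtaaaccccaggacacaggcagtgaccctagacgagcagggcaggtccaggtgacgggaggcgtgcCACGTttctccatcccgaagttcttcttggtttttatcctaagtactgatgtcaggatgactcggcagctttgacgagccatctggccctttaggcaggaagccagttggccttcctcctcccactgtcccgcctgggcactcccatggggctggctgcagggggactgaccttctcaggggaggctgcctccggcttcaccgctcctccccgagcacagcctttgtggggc
LINC00511 (chr17:72640423-72640722, minus strand): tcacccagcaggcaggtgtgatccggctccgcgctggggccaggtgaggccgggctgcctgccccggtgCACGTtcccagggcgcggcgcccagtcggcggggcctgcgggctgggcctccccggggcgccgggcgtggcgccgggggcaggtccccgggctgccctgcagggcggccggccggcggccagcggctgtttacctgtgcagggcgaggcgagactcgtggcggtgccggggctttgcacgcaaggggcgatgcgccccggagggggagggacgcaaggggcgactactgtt
LINC01792 (chr2:200735128-200735427, minus strand): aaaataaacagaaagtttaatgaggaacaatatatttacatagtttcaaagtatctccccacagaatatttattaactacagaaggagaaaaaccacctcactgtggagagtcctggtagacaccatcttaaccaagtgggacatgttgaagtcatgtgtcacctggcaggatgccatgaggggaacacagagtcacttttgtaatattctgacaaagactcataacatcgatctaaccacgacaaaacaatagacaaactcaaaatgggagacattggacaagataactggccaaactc
LINC00460 (chr13:106376314-106376613, plus strand): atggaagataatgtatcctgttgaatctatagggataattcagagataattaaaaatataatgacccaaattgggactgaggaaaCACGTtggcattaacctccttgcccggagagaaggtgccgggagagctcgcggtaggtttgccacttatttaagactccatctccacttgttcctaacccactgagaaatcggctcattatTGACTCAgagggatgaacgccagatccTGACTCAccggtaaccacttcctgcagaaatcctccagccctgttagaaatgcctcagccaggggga
LINC01833 (chr2:44939150-44939449, minus strand): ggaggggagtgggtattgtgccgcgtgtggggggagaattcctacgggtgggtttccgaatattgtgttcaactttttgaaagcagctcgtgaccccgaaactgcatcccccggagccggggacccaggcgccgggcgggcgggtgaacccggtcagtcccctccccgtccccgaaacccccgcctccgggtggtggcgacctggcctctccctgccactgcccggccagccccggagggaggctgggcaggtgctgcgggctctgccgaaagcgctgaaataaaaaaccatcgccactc
LINC01819 (chr2:43039494-43039793, minus strand): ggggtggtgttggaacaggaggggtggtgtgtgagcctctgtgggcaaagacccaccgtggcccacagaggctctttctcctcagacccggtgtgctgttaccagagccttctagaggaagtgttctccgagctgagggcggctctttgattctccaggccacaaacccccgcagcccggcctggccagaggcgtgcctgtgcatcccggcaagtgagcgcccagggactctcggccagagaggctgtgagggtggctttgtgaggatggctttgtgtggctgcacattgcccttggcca
LINC00842 (chr10:46398112-46398411, plus strand): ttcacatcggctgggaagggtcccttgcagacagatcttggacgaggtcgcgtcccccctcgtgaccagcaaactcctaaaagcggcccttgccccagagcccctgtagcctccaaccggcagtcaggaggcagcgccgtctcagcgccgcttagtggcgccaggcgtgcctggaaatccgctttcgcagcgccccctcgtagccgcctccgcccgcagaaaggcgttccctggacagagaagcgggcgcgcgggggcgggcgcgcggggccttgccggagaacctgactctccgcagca
LINC00472 (chr6:71420696-71420995, minus strand): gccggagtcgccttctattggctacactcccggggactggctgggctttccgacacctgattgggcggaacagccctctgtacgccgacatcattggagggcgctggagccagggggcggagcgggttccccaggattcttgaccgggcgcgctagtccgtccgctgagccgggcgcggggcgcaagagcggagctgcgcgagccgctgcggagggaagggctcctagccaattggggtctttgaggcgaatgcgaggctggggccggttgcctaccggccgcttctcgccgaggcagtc
LINC01537 (chr11:72570406-72570705, plus strand): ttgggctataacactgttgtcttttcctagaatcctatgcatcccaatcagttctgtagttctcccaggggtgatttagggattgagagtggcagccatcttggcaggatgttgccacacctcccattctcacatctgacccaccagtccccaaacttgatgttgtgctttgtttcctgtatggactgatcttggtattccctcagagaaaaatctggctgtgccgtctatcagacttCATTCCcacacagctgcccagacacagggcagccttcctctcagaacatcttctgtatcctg

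In the LINC00460 window, TGACTCA occurs at 44 and at 17 bases before the start. The RefSeq start of LINC00460 lies 2087 bases from the outermost start in GENCODE release 29, so this window lies inside the gene as GENCODE places it. Whether a GENCODE transcript starts there was not examined. The ACGTG matches of LINC00942, LINC00511 and LINC00460 lie 182, 181 and 165 bases before the start, and the GGAATG match of LINC01537 lies 12 bases before it. The windows of LINC01792, LINC01833, LINC01819, LINC00842 and LINC00472 hold none of these motifs. Over all 95 member promoters, an AP-1 word was found in 14 (14.7%), against 4.95% of the 35116 promoters in the table. TATAAA was in 14.7% of member promoters and 11.5% of all promoters, GGAATG in 8.42% and 14%, TGACGTCA in 3.16% and 1.85%, and GGANTTTCC in 1.05% and 1.64%. ACGTG was in 27.4% of member promoters and 21.4% of all. Of the 18 promoters of called members, 9 belong to higher and 9 to lower members. ACGTG was in 5 of the higher and 0 of the lower, the AP-1 word in 2 and 1, TATAAA in 2 and 1, and GGAATG in 0 and 1, while TGACGTCA and GGANTTTCC were in 0 of either. These differences were not tested. The ACGTG matches of LINC00910 and LINC01278 lie after the start, from base 19 in LINC00910 and from bases 19 and 20 in LINC01278. Some windows are far from the outermost GENCODE start, by 26913 bases for LINC00862 and 11167 for LINC01119. Median GC content was 54.3% in member promoters and 58.7% in all. A match is a string of letters and was not tested as a binding site.

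Most LINC genes were silent or nearly so. Of the 2138 rows, 1122 had no count in any library, 868 had between 1 and 119 counts, and the 148 members held 90.0% of all counts on LINC rows. Every member had at least 9 counts in every library, and all 148 passed the filter on low counts. Totals ran from 120 to 24603, with a median of 341.5. The rows just inside the threshold were LINC01569 with 120 counts and LINC01807 and LINC01134 with 123 each. Just outside were LINC01547, LINC01572 and LINC02178, with 119 each.

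A few members carried a large share of the signal. LINC01278 alone took 17.7% of all member counts, the 5 most abundant took 37.1% and the 10 most abundant 49.0%. Together the members held 0.112%, 0.119% and 0.119% of the library in si-GLMP replicates 1 to 3, against 0.105%, 0.106% and 0.106% in NC replicates 1 to 3. The groups did not overlap in this share, which averaged 0.116% ± 0.00423 in si-GLMP and 0.106% ± 0.000471 in NC (SD, n = 3 each). The mitochondrial share given above also separates the groups, in the other direction, and its part in this difference was not tested.

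Per kilobase of exon, the highest member was LINC00942, at 47.9 ± 1.77 CPM per kb in si-GLMP and 33.1 ± 2.14 in NC (SD, n = 3 each). LINC01278 followed with 33.0 ± 1.54 in si-GLMP and 28.6 ± 3.39 in NC. These are the only 2 of the 10 highest members that were called as changed. LINC01895 had 20.2 ± 3.81 CPM per kb in si-GLMP and 19.7 ± 0.877 in NC, and LINC01503, a transcript described in squamous carcinomas, had 18.6 ± 0.975 in si-GLMP and 19.1 ± 0.890 in NC, so the 2 transcripts lay within their spread of each other. Next came LINC01164, with 12.7 ± 0.580 in si-GLMP and 13.6 ± 0.639 in NC, and LINC01234, reported as growth-promoting in lung and gastric cancer, with 10.6 ± 0.245 in si-GLMP and 9.85 ± 0.578 in NC. Places 7 to 10 went to LINC01605, LINC01291, LINC00857 and LINC01293, which lay between 6.75 and 8.60 CPM per kb in both groups, and for neighbours in this order the ranges of mean ± SD overlapped in both groups.

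**Figure D1:**
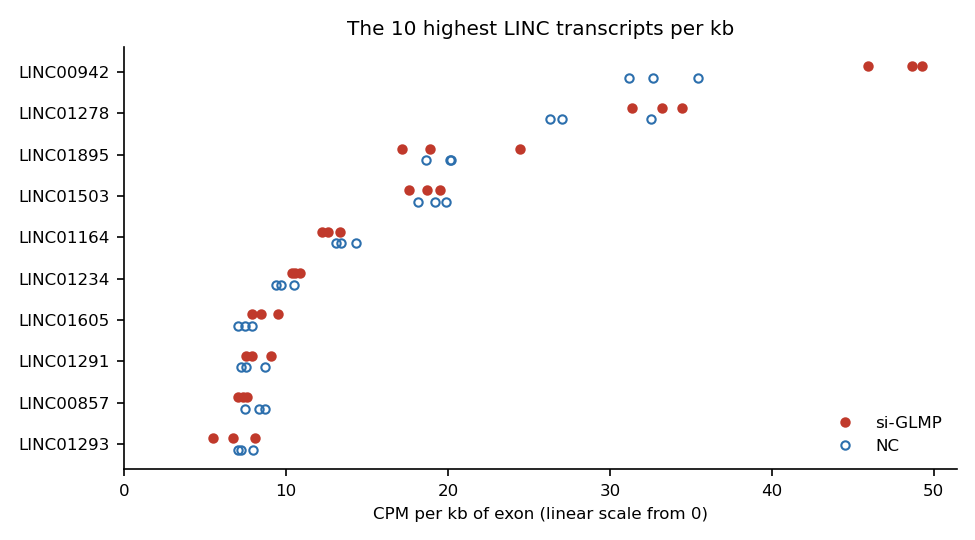
Level of the 10 highest LINC transcripts, in CPM per kb of exon on a linear axis from 0. Each point is 1 library, filled for si-GLMP and open for NC. LINC00942 lies at 47.9 on average in si-GLMP and 33.1 in NC, while 8 of the 10 transcripts were not called.

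Most members are annotated as their symbols say. In GENCODE release 29, 109 of the 148 are typed lincRNA, 15 processed transcript and 12 antisense, and 5 are transcribed unprocessed pseudogenes. Another 2 are typed protein coding. The gene interval of 22 members overlaps that of a protein-coding gene, and 26 have no protein-coding gene within 100 kb. The exonic length has a median of 2794.5 bases and runs from 404 to 27605, and 14 members consist of 1 block of exon. GC content of the longest transcript has a median of 47.6%. More than 20% of the exonic length of 7 members overlaps another gene, and more than 20% of the longest transcript of 11 members recurs elsewhere at 98% identity or more. The values of these 17 members, such as LINC00623, LINC01145, LINC01106 and LINC01123, are uncertain because the strand setting and the treatment of shared reads are not given. The calls reported below involve 0 of the 17.

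At an adjusted p under 0.05 by edgeR, 18 of the 148 members were called higher with GLMP knockdown, 11 were called lower, and 119 were not called. The called share was 19.6%, where the share over all 15900 tested genes was 23.3%. Higher members made 12.2%, against 12% of all tested genes, and lower members 7.43%, against 11.3%. The median log2 fold change was 0.07 over the members and 0.00 over all tested genes, and the median absolute value 0.26 and 0.18. The groups did not overlap in 46 members (31.1%), where the share over all tested genes was 36.5%. Among the 13946 tested genes that also reach 120 counts, 25.9% were called, 13.3% higher and 12.6% lower, and the groups did not overlap in 39.2%. The members' shares lay below these, and the difference was not tested.

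The share called differed between bands of abundance. From 120 to under 300 total counts, 7 of 59 members (11.9%) were called, against 9.20% of all 1880 tested genes in that band. From 300 to under 1000 counts it was 15 of 60 members (25.0%), against 18.3% of 2295 genes. At 1000 counts or more it was 7 of 29 members (24.1%), against 30.9% of 9771 genes. The median standard error of a member's log2 fold change was 0.30, 0.20 and 0.11 in the 3 bands.

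**Figure D2:**
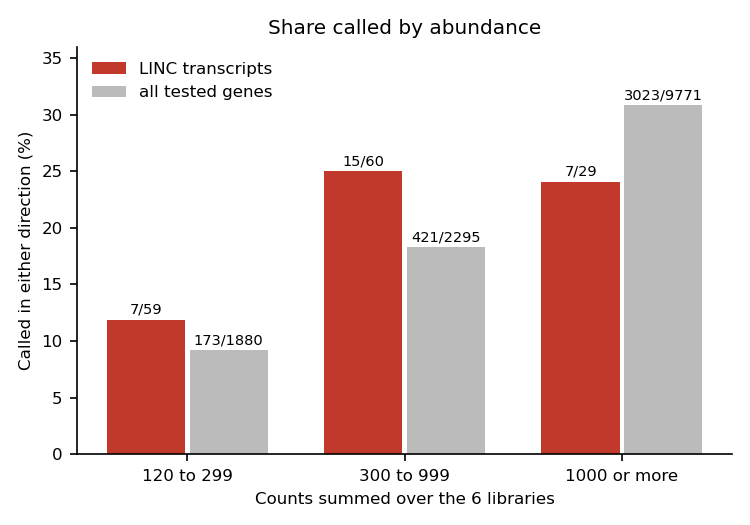
Percentage of LINC transcripts and of all tested genes called in either direction, in 3 bands of total counts, with the number called and tested above each bar. LINC transcripts stand at 11.9%, 25.0% and 24.1%, and all tested genes at 9.20%, 18.3% and 30.9%.

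**Figure D3:**
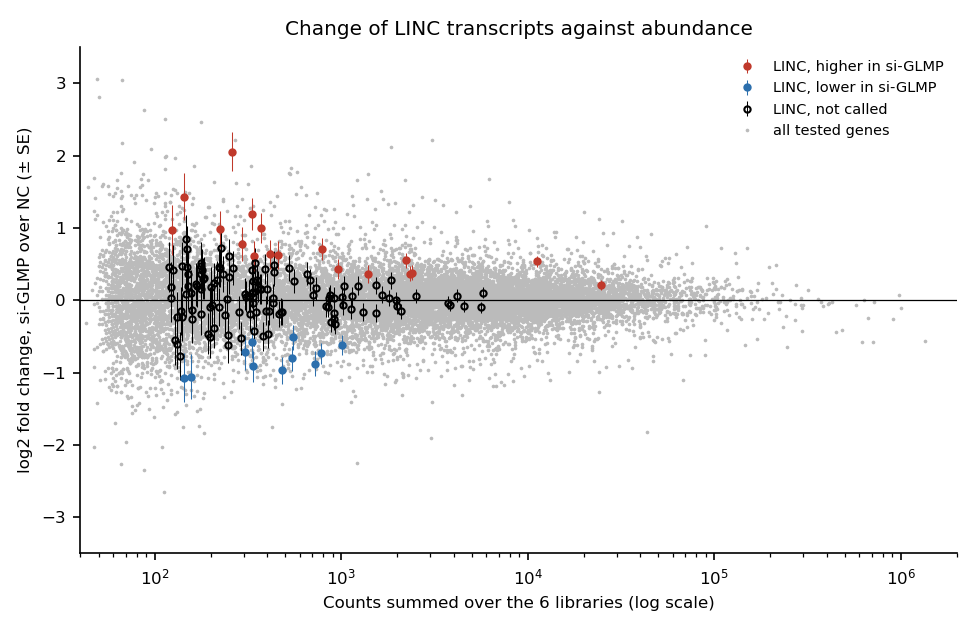
Log2 fold change of si-GLMP over NC against total counts on a log axis. Filled points are called LINC transcripts with SE, open points the other LINC transcripts, and grey points all tested genes. Called changes run from -1.07 to 2.05, and the 2 most abundant members, LINC00942 and LINC01278, lie at 0.53 and 0.21.

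The members that were higher had log2 fold changes from 0.21 to 2.05, with a median of 0.63. The largest was in LINC01559, a transcript reported in gastric and pancreatic cancer. It had 3.32, 3.44 and 3.34 CPM in si-GLMP replicates 1 to 3, against 0.603, 0.587 and 1.20 CPM in NC replicates 1 to 3. All si-GLMP libraries lay above all NC libraries, and NC replicate 3 stood above the other NC libraries. The log2 fold change was 2.05 ± 0.27 (SE; edgeR adjusted p = 1.83e-08), a 4.15-fold higher level.

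LINC02474, on chromosome 1, had 1.61, 1.70 and 1.74 CPM in si-GLMP, against 0.603, 0.636 and 0.621 CPM in NC. The libraries of each group lay close together, and the log2 fold change was 1.43 ± 0.32 (edgeR adjusted p = 0.000603). LINC01792, on chromosome 2, had 3.67, 4.24 and 3.20 CPM in si-GLMP, against 2.01, 1.17 and 1.69 CPM in NC. The groups did not overlap, at a log2 change of 1.19 ± 0.22 (edgeR adjusted p = 4.59e-05). LINC02635 had 3.76, 4.15 and 4.02 CPM in si-GLMP, against 1.91, 1.81 and 2.22 CPM in NC. The estimate was 1.0 ± 0.21 on the log2 scale (edgeR adjusted p = 0.000159), and the lowest si-GLMP library lay above the highest NC library.

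LINC01484 had 2.20, 2.40 and 2.57 CPM in si-GLMP, against 1.41, 1.03 and 1.20 CPM in NC (log2 fold change 0.98 ± 0.26, edgeR adjusted p = 0.00342). LINC01534, which starts 163 bases from the zinc-finger gene ZNF567 and now carries the symbol ZNF567-DT, had 1.52, 1.32 and 1.11 CPM in si-GLMP, against 0.703, 0.636 and 0.666 CPM in NC. Its log2 fold change was 0.97 ± 0.34 (edgeR adjusted p = 0.0308). With 124 counts in all it is the scarcest called member, and of the 6 fits with a library left out its call held only without si-GLMP replicate 3 (edgeR adjusted p of up to 0.119 in the others). It was also lost with no filter on low counts and under DESeq2. LINC01003 had 3.57, 3.21 and 2.13 CPM in si-GLMP, against 1.51, 1.86 and 1.82 CPM in NC, so that si-GLMP replicate 3 lay near the NC libraries. Its log2 fold change was 0.78 ± 0.23 (edgeR adjusted p = 0.0106). The call was lost without si-GLMP replicate 1 or 2, with an edgeR adjusted p of up to 0.0918.

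LINC00460 and LINC00511 have both been reported as growth-promoting transcripts of lung and other carcinomas. LINC00460 had 7.62, 8.25 and 7.65 CPM in si-GLMP, against 4.97, 4.94 and 4.48 CPM in NC. Its log2 fold change was 0.71 ± 0.15 (edgeR adjusted p = 0.000221), and its promoter window is the one with the AP-1 pair printed above. LINC00511 had 21.5, 21.1 and 20.8 CPM in si-GLMP, against 13.7, 14.5 and 15.0 CPM in NC. Its libraries lay tightly together within each group, at a log2 change of 0.55 ± 0.10 (edgeR adjusted p = 3.81e-05). GENCODE release 29 gives it 106 transcripts and 27605 bases of exon, the longest among the members.

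The 2 most abundant members were both higher. LINC00942, which lies 4592 bases from ERC1 on chromosome 12, had 107.5, 101.5 and 108.9 CPM in si-GLMP, against 72.2, 78.3 and 69.0 CPM in NC. The groups were well apart, at a log2 change of 0.53 ± 0.07 (edgeR adjusted p = 3.30e-08). LINC01278 had 200.1, 212.0 and 219.7 CPM in si-GLMP, against 167.9, 207.5 and 172.7 CPM in NC. NC replicate 2 lay inside the range of the si-GLMP libraries, and this was the 1 called member whose groups overlapped. The log2 fold change was 0.21 ± 0.07 (edgeR adjusted p = 0.0255). The call was lost without si-GLMP replicate 2 or 3 or NC replicate 1 or 3, with an edgeR adjusted p of up to 0.229, and under DESeq2 (adjusted p = 0.0640). The interval of LINC01278 overlaps that of SPIN4, whose estimate was 0.16 on the log2 scale (edgeR adjusted p = 0.0957).

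The other higher members were LINC01137, LINC01269, LINC02492, LINC01119, LINC02864, LINC02582 and LINC00910, with log2 fold changes between 0.36 and 0.63. LINC02864 and LINC02582 lie on opposite strands of chromosome 18, 60.5 kb apart, and changed by nearly the same amount. The estimate for LINC02864 was 0.38 ± 0.10 (edgeR adjusted p = 0.00442) and that for LINC02582 was 0.37 ± 0.12 (edgeR adjusted p = 0.0242). Neither has a protein-coding gene within 100 kb. Of these 7, only LINC02864 kept its call in all fits with a library left out. LINC00910 lost it without si-GLMP replicate 2, LINC01269 without si-GLMP replicate 3 or NC replicate 2, and LINC01119 without si-GLMP replicate 2 or NC replicate 3. LINC02582 lost it without si-GLMP replicate 2 or 3 or NC replicate 1 or 3, and LINC02492 without si-GLMP replicate 1 or 3 or NC replicate 1 or 2. LINC02492 also lost it with no filter on low counts and under DESeq2 (adjusted p of up to 0.0696).

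**Figure D4:**
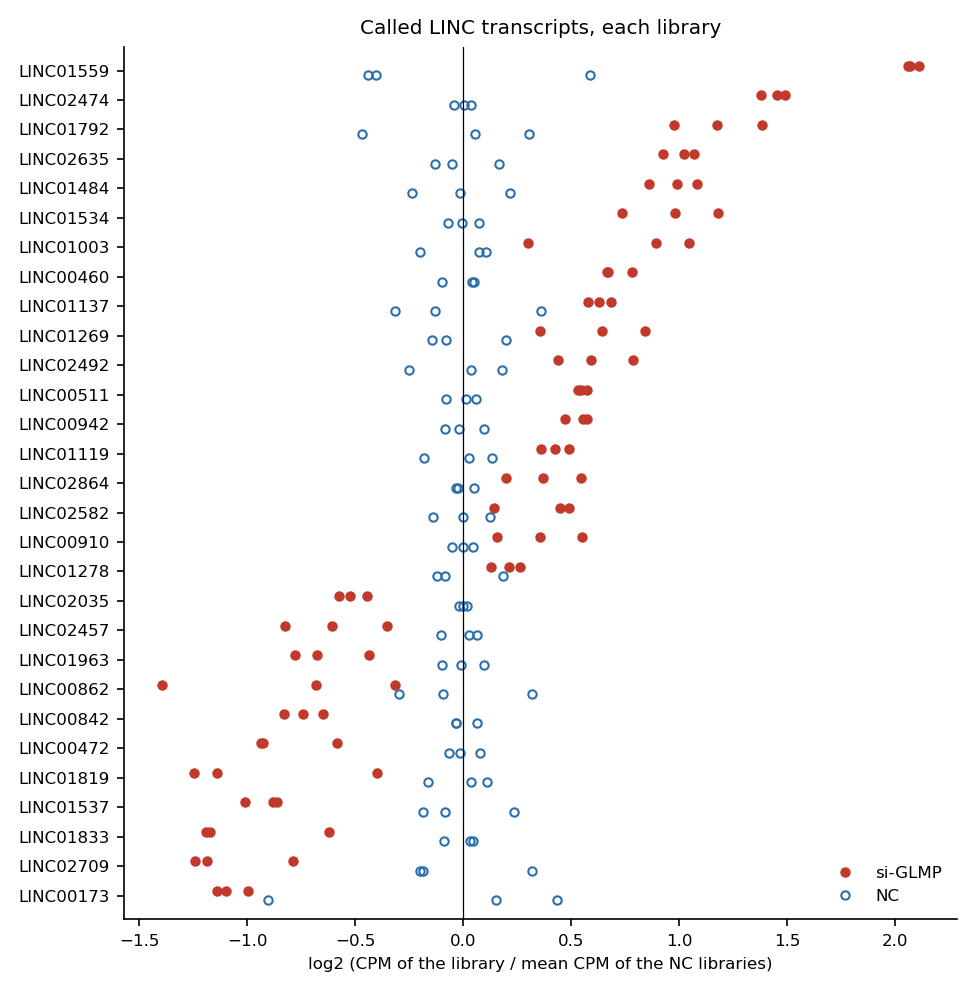
Each row is 1 of the 29 called LINC transcripts, ordered by log2 fold change, and each point is 1 library, filled for si-GLMP and open for NC. The axis is the log2 ratio of the library's CPM to the mean CPM of the NC libraries. The points of the groups do not overlap in 28 of the 29 rows, LINC01278 being the exception. The rows were chosen by their adjusted p in these same libraries, which favours such separation. Over all tested genes the groups did not overlap in 36.5%.

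The members that were lower had log2 fold changes from -0.51 to -1.07, with a median of -0.80. The largest estimates were in scarce transcripts. LINC00173, a transcript described in lung cancers, had 0.782, 0.707 and 0.727 CPM in si-GLMP, against 2.11, 0.832 and 1.73 CPM in NC. NC replicate 2 lay close to the si-GLMP libraries, and the log2 fold change was -1.07 ± 0.34 (edgeR adjusted p = 0.0154). The call was lost without si-GLMP replicate 2 or 3 or NC replicate 1 or 3, with an edgeR adjusted p of up to 0.160, and with a filter of 1 CPM in 3 libraries. LINC02457 lies 14.6 kb away on the same strand of chromosome 12 and was also lower, at -0.58 ± 0.21 (edgeR adjusted p = 0.0400). It kept its call only where si-GLMP replicate 1 was the library left out, and lost it under DESeq2 and with no filter.

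LINC02709 had 0.733, 0.707 and 0.969 CPM in si-GLMP, against 1.46, 1.47 and 2.09 CPM in NC (log2 fold change -1.06 ± 0.31, edgeR adjusted p = 0.00942). Its call was lost without NC replicate 3 (edgeR adjusted p = 0.101). LINC01833 lies 2699 bases from the homeobox gene SIX3, which was too scarce to test. LINC01833 had 2.25, 2.22 and 3.29 CPM in si-GLMP, against 4.77, 5.19 and 5.24 CPM in NC. Its log2 fold change was -0.97 ± 0.19 (edgeR adjusted p = 7.21e-05), and si-GLMP replicate 3 lay above the other si-GLMP libraries.

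LINC01537 had 1.91, 1.93 and 1.74 CPM in si-GLMP, against 3.31, 3.08 and 4.13 CPM in NC (log2 fold change -0.92 ± 0.22, edgeR adjusted p = 0.000939). LINC01819, on chromosome 2 with no coding gene within 100 kb, had 5.67, 3.40 and 3.15 CPM in si-GLMP, against 6.68, 7.68 and 8.08 CPM in NC. Here si-GLMP replicate 1 lay nearer to the NC libraries than to the rest of its group. The log2 fold change was -0.88 ± 0.17 (edgeR adjusted p = 0.000101). LINC00842 had 4.40, 4.67 and 4.99 CPM in si-GLMP, against 7.63, 8.17 and 7.63 CPM in NC, at -0.74 ± 0.15 (edgeR adjusted p = 0.000141). Of its transcript, 19.5% recurs elsewhere at 98% identity or more.

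LINC00472, reported as a growth-restraining transcript in breast cancer, was also lower. It had 2.88, 3.68 and 2.91 CPM in si-GLMP, against 5.27, 5.82 and 5.46 CPM in NC. The groups did not overlap, and the log2 fold change was -0.80 ± 0.17 (edgeR adjusted p = 0.000344). Its gene on chromosome 6 contains the hairpins of MIR30A and MIR30C2, and it is the 1 called member of 5 members with a microRNA hairpin inside. The mature sequences follow, from RefSeq GRCh38.p14, with the seed (bases 2 to 8) in capitals.
hsa-miR-30a-5p: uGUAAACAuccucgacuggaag
hsa-miR-30c-5p: uGUAAACAuccuacacucucagc
hsa-miR-30a-3p: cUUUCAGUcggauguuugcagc
hsa-miR-30c-2-3p: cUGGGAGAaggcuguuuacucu

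The 5p arms share the seed GUAAACA, and the 3p arms have seeds of their own. These libraries were made from messenger RNA and do not measure mature microRNAs, so no value can be given for them. The other lower members were LINC00862, LINC01963 and LINC02035. LINC00862 had 1.91, 2.45 and 1.16 CPM in si-GLMP, against 2.86, 3.82 and 2.49 CPM in NC, with the highest si-GLMP library just below the lowest NC library. Its log2 fold change was -0.72 ± 0.24 (edgeR adjusted p = 0.0210), and DESeq2 gave an adjusted p of 0.0583. The call was also lost without si-GLMP replicate 1 or 3 or NC replicate 2. LINC01963 had -0.62 ± 0.14 (edgeR adjusted p = 0.000441) and LINC02035 -0.51 ± 0.17 (edgeR adjusted p = 0.0204), the call of LINC02035 being lost without si-GLMP replicate 3 or NC replicate 1 or 3.

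Among the 119 members not called, log2 fold changes ran from -0.77 for LINC00672 to 0.85 for LINC00623. LINC01151 just missed the threshold at 0.72 ± 0.28 (edgeR adjusted p = 0.0506). It had 1.76, 3.35 and 1.65 CPM in si-GLMP, against 1.66, 1.08 and 1.38 CPM in NC, so si-GLMP replicate 2 stood alone. Within a group, the highest library exceeded the lowest by a median of 1.29 times in si-GLMP and 1.27 times in NC. In 14 members a group spread over more than 2-fold. The widest was LINC02381, with 1.52, 0.424 and 1.55 CPM in si-GLMP, against 1.66, 1.03 and 1.46 CPM in NC. No statement about a difference can be made for it at this depth (log2 fold change -0.25, edgeR adjusted p = 0.650).

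The nearest protein-coding gene within 100 kb was looked up for each member, since LINC transcripts are often studied together with their neighbours. Of the 122 members with such a gene, 98 had one that could be tested, and 22 of these neighbours (22.4%) were called, again near the background of 23.3%. For the called members, 21 neighbours could be tested and 6 were called, where the share over all tested genes was 23.3%. All 6 changed in the direction of their LINC transcript. Where only the neighbour was called, opposite signs were more frequent than equal signs. LINC00467 at 0.27 lay near TRAF5 at -1.06, and LINC01589 at 0.70 near FBLN1 at -0.33. LINC01619 at 0.51 and BTG1 at 0.46 had equal signs. Neither the number of called neighbours nor the directions were tested. Over the 98 pairs, which share libraries and include 93 distinct neighbours, Pearson's r of the log2 fold changes was 0.20 and Spearman's rho 0.17.

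The closest of the 6 pairs was LINC01137 with ZC3H12A, the gene of the endoribonuclease Regnase-1, which degrades inflammatory messenger RNAs. In GENCODE release 29 the 2 genes start 141 bases apart on opposite strands of chromosome 1, and LINC01137 now carries the symbol ZC3H12A-DT. LINC01137 had 4.06, 3.91 and 4.21 CPM in si-GLMP, against 3.36, 2.10 and 2.40 CPM in NC, a log2 change of 0.63 ± 0.20 (edgeR adjusted p = 0.0147). ZC3H12A had 67.0, 69.8 and 66.5 CPM in si-GLMP, against 43.4, 38.9 and 42.5 CPM in NC, a log2 change of 0.70 ± 0.08 (edgeR adjusted p = 1.77e-10). Groups of both genes were apart, but the LINC01137 call was lost without si-GLMP replicate 3 or NC replicate 2 or 3 (edgeR adjusted p of up to 0.0883). The shared region is shown as the RefSeq promoter of ZC3H12A, with its TATAAA match in capitals. RefSeq places the ZC3H12A start farther from LINC01137 than GENCODE does, 169 bases from the LINC01137 start, and the TATAAA lies 27 bases before that RefSeq start. It does not lie before the GENCODE start.
ZC3H12A (chr1:37474330-37474629, plus strand): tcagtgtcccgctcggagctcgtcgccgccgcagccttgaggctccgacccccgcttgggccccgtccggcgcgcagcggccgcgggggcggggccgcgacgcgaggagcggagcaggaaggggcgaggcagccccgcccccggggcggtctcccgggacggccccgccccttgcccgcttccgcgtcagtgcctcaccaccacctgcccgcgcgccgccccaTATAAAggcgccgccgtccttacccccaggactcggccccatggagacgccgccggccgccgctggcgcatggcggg

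For 10 members, the nearest coding gene by interval was on the other strand and started within 1000 bases of the member's start. Starts of other coding genes were not searched. Both genes of the pair were called for LINC01137 alone. LINC01534 was higher at 0.97 while the estimate for ZNF567 was -0.06 (edgeR adjusted p = 0.826). LINC01135 starts 801 bases from JUN, the AP-1 subunit. JUN was higher at 0.35 ± 0.07 (edgeR adjusted p = 6.96e-05), and the estimate for LINC01135 was -0.07 (edgeR adjusted p = 0.897). LINC00205, next to the fucosyltransferase gene POFUT2, had -0.18 (edgeR adjusted p = 0.314), where POFUT2 was higher at 0.45 (edgeR adjusted p = 6.96e-05). These 3 contrasts were chosen after their values were seen, and the difference within each pair was not tested.

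The gene intervals of the other called pairs lay 1779 to 10742 bases apart, but their starts lay 95456 to 452240 bases apart. XRCC5 and SLC39A11 lie on the same strand as their LINC transcript, and SWAP70, PDE2A and MAP3K9 on the opposite strand. LINC02709 and SWAP70, the gene of an actin-binding signalling protein, had -1.06 and -0.51 ± 0.09 (edgeR adjusted p of SWAP70 = 8.80e-06). LINC01537 and PDE2A, a cyclic nucleotide phosphodiesterase gene, had -0.92 and -0.35 ± 0.07 (edgeR adjusted p of PDE2A = 0.000134). PDE2A averaged 94.3 ± 8.21 CPM in si-GLMP and 119.9 ± 2.98 CPM in NC (SD, n = 3 each). LINC01963 and XRCC5, which encodes a subunit of the Ku DNA end-binding complex, had -0.62 and -0.23 ± 0.06 (edgeR adjusted p of XRCC5 = 0.00437). LINC01269 and the kinase gene MAP3K9 had 0.62 and 0.30 ± 0.07 (edgeR adjusted p of MAP3K9 = 0.000443). LINC00511 and the zinc transporter gene SLC39A11 had 0.55 and 0.30 ± 0.09 (edgeR adjusted p of SLC39A11 = 0.0127). In each of these pairs the fold change of the LINC transcript was the larger estimate. The SE of the LINC estimates ran from 0.10 to 0.31, against 0.06 to 0.09 for the coding genes. A call at a larger SE needs a larger estimate, so the choice of called pairs favours this order, which was not tested.

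**Figure D5:**
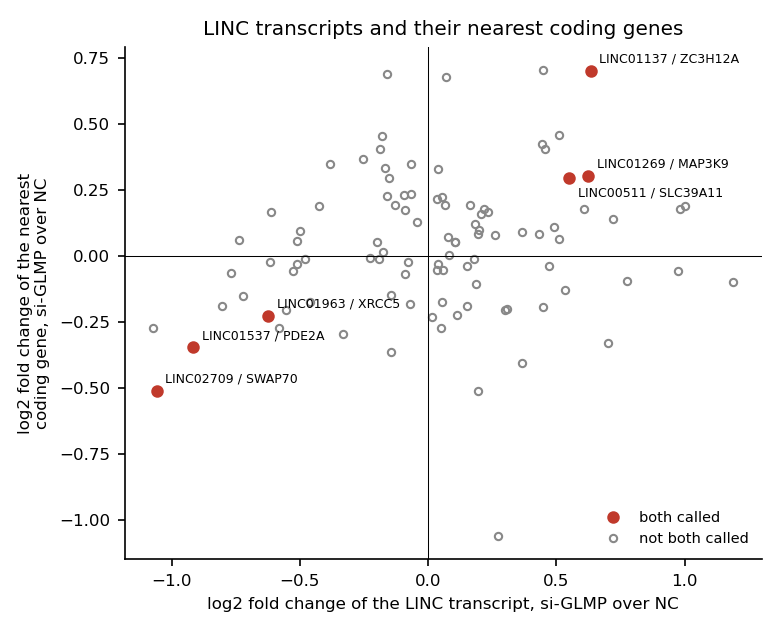
Log2 fold change of the nearest coding gene against that of the LINC transcript, si-GLMP over NC, for the 98 pairs that could be tested. Filled points mark the 6 pairs in which both were called, and all 6 lie in the quadrants of equal sign. Pairs in which only the coding gene was called are not marked apart, and more of them had opposite signs than equal signs.

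Other noncoding genes of the same table, held to the same 120 counts, are given for comparison and were not tested against the members. Of 236 antisense transcripts, 19 were higher and 15 lower (14.4% called), and of 59 divergent transcripts 3 were higher and 3 lower (10.2%). Of 20 small nucleolar RNA host genes, 3 were higher and 1 lower (20%), and of 25 microRNA host genes 3 were higher and 3 lower (24.0%). The log2 fold changes of 5 intronic transcripts lay between -0.09 and 0.24. Among the LINC rows under 120 counts, 68 could be tested, with 1 higher and 1 lower (2.94%). Their median total was 81.5 counts. Their median standard error was 0.42, against 0.21 for the members and 0.11 for all tested genes.

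A list of well studied long noncoding RNAs held 48 symbols, of which 46 were in the table and 31 could be tested, whatever their total. Of these, 7 were higher, 1 lower and 23 not called, with a median of -0.00. The share called was 25.8%, with 22.6% higher and 3.23% lower, against 23.3%, 12% and 11.3% of all tested genes. LUCAT1, a transcript induced by oxidative and inflammatory stress, had 79.1, 102.6 and 94.2 CPM in si-GLMP, against 49.4, 38.8 and 47.0 CPM in NC, a log2 change of 1.03 ± 0.09 (edgeR adjusted p = 1.20e-10). GAS5, a small nucleolar RNA host, was higher by 0.35 ± 0.07 (edgeR adjusted p = 8.25e-05) and FTX by 0.41 ± 0.10 (edgeR adjusted p = 0.00113). MIR210HG, host of the hypoxia-induced miR-210, averaged 0.974 ± 0.425 CPM in si-GLMP and 0.257 ± 0.0827 CPM in NC (SD, n = 3 each), at 1.91 ± 0.47 (edgeR adjusted p = 0.00150). It was scarce, with 14, 31 and 16 counts in si-GLMP replicates 1 to 3, against 5, 7 and 4 in NC. EPB41L4A-AS1 was higher by 0.35 (edgeR adjusted p = 0.0267), UCA1 by 0.26 (0.0288) and NEAT1, the scaffold of paraspeckles, by 0.40 (0.0419). OIP5-AS1, the human counterpart of cyrano, was the 1 lower gene, at -0.49 ± 0.10 (edgeR adjusted p = 0.000287). Among the most abundant of the list, MALAT1, NORAD and TUG1 were not called, with log2 fold changes of 0.11, -0.09 and 0.04. GAS5 and NEAT1, given above as higher, are also among the most abundant.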

How the data were processed

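PC9OR cells with GLMP knockdown (si-GLMP) and control cells (NC) were sequenced in 3 libraries each, made from messenger RNA per the labels. The authors deposited raw read counts per gene with Ensembl identifiers and symbols, as whole numbers without scaling. Per the submitters' processing notes, HISAT2 was among the tools and GRCh38 was the build. For the counter, its annotation and strandedness, the answer is not given in the sources used here. All 6 count columns matched a sample title, with 0 left over.

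The members and lists were chosen with earlier results of these data known. The table of 60664 genes went into edgeR 4.0.16 (R 4.3.3). The function filterByExpr (minimum count 10) kept 15900 genes, libraries were scaled by TMM, and the groups were compared by the robust quasi-likelihood F test with Benjamini-Hochberg adjustment over all tested genes. "Called" means an adjusted p under 0.05. Standard errors were taken as log2 fold change over root F. The test was tried on simulated data. A count of 3 in a library, taken as the floor, equals 0.133 to 0.151 CPM and covers counting error only.

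Positions, exonic lengths, overlaps and neighbours came from GENCODE release 29 (GRCh38), matched by identifier for all 148 members. Levels per kb use the union of exons. Copies were found with BLAST at 98% identity over at least 200 bases. The text names GLMP, all called members, the 10 highest per kb, the 3 rows on each side of the threshold, called neighbours of called members, and the 6 listed noncoding RNAs with the smallest adjusted p. Others were chosen after their values were seen. Same-numbered replicates did not deviate together (correlations 0.0388, 0.0263 and 0.00128), so no block was used. The calls were repeated with RLE or upper-quartile scaling, without the filter, with 1 CPM in 3 libraries, DESeq2 1.42.0, limma-voom (limma 3.58.1), the replicate block and each library left out.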

Additional observations from a re-analysis of the deposited data

How the results depend on the processing

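The 18 higher and 11 lower LINC transcripts stayed within 1.5 times under RLE or upper-quartile scaling, no filter, 1 CPM in 3 libraries, limma-voom and DESeq2, which called 15 and 9. With the replicate number as a block, whose correlations are too low to show pairing although every si-GLMP library correlated best with the NC library of its own number, the counts were again 18 and 11, and all 29 were the same genes; over all genes the block gave 3972 calls against 3712. With a library left out, so that fewer libraries enter each fit, 13 to 18 were higher and 7 to 11 lower. The lowest count of lower members, 7, came without NC replicate 3, where LINC02709, LINC00173, LINC02035 and LINC02457 lost their calls. Without NC replicate 2 there were 16 higher and 10 lower. Calls over all genes ran from 2804 to 3448 in these fits. An absolute log2 fold change over 1 left 4 higher and 2 lower. Without the 17 members that share sequence with other genes (a choice made with the data in view) the counts stayed at 18 and 11. Leaving LINC01278 out of the summed share lowered the difference between the groups from 0.0104 to 0.00728 percentage points.

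Of the 29 called members, 15 kept their call in every alternative fit: LINC01559, LINC00942, LINC00511, LINC01792, LINC02635, LINC00460, LINC02474, LINC01484, LINC02864, LINC01833, LINC01819, LINC00842, LINC00472, LINC01963 and LINC01537. For the others, the highest edgeR adjusted p in leave-one-out fits ran from 0.0782 for LINC02035 to 0.229 for LINC01278. Signs changed in 7 uncalled genes, whose log2 fold changes with a library left out ran from -0.12 to 0.14 (LINC01895), -0.0692 to 0.00321 (LINC01503), -0.0172 to 0.15 (LINC01291), -0.28 to 0.00106 (LINC01293), -0.0916 to 0.13 (LINC01547, 0.00142 with upper-quartile scaling), -0.10 to 0.18 (LINC01807) and -0.00557 to 0.35 (LINC01134). Of 710 single-gene comparisons, 642 kept direction and side of the threshold, 56 lost the call and 12 changed sign. Depth limits the scarce members: below 300 counts the median standard error was 0.30.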
